A study of Mus musculus with 22 samples.

Results

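The genes described here encode the subunits of oxidative phosphorylation, with cytochrome c and a set of complex I assembly factors whose names begin in the same way. A gene was a member when its symbol in the array annotation began with Nduf, Uqcr, Cox4i, Cox5, Cox6, Cox7, Cox8 or Atp5, or was Sdha, Sdhb, Sdhc, Sdhd or Cycs, and when its brightest probe set with a single gene symbol averaged at least 5.2 log2 over the 22 arrays. Of the 19938 genes with such a probe set, 14002 reached that level and were tested. The names took in 90 genes, of which 89 passed and are the members. Cox7b2, a testis form of a complex IV subunit, averaged 3.33 and fell below the limit, while Cox8c at 5.69, Cox4i2 at 5.90 and Ndufa4l2 at 6.09 lay just above it. The members were 34 subunits of complex I, 7 complex I assembly factors, 4 subunits of complex II, 8 of complex III, cytochrome c itself, 18 of complex IV and 17 of complex V. Cox7c, Ndufb4, Ndufb4b and a pseudogene of Ndufs5 lie only on probe sets that carry a second gene symbol, so none of them is a member.

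Kidney RNA came from wild-type mice (WT) and from Clock-deficient mice (KO) bred from heterozygous parents of the line made by Debruyne and colleagues, and was measured on whole-transcript expression arrays. Both genotypes were adapted for 2 weeks to 12 h of light and 12 h of darkness and then spent 30 h in constant darkness before sacrifice, so all samples share that dark period. Kidneys were collected at 6 times 4 h apart, named by zeitgeber time (ZT), where ZT0 marked lights on in the earlier cycle and ZT12 marked lights off. Each array held RNA combined from 2 or 3 mice, and each genotype had 11 arrays, made of 2 pools per time except for 1 WT pool at ZT8 and 1 KO pool at ZT16. The labels give neither sex nor age of the mice. They name no promoter or tissue that limits the deletion, so effects of the kidney's own clock and of behaviour or hormones cannot be told apart. The labels number the pools 1 and 2 and do not say what the numbers stand for, so each p-value speaks only of the spread from pool to pool, which may be technical.

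Oxidative phosphorylation takes electrons from NADH at complex I and from succinate at complex II, passes them through complex III and cytochrome c to oxygen at complex IV, and uses the resulting proton gradient at complex V to make ATP. The tubules of the kidney, above all the proximal tubule and the thick ascending limb, hold many mitochondria because active transport of sodium consumes ATP. Most subunits are encoded in the nucleus, and the members are all nuclear genes, while the subunits encoded by mitochondrial DNA are outside the naming rule.

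Values are log2 expression from RMA, and array medians lay between 5.88 and 6.01. The Clock probe set read 8.86 ± 0.24 (SD, n = 11) in WT against 8.95 ± 0.11 in KO (SD, n = 11), and since no source used here says whether its probes lie in the deleted part, it does not check the labels. Of 13 clock genes, 10 differed between genotypes in the limma fit described below, against 9.11% of all genes. Clock itself was among the 10, higher in KO by 0.13 ± 0.04 (adjusted p = 0.0399). Here ± is the standard error of the fit. Its partner Arntl differed in the same direction, by 1.01 ± 0.10 (adjusted p = 2.39e-06), with an amplitude of 1.55 in WT and 0.62 in KO. Kidney markers were bright, with the 6 proximal tubule markers averaging 11.40 to 13.14 and the 4 markers of the thick ascending limb 8.51 to 13.05, while all 3 adrenal cortex markers lay below 5.2. Of the marker lists, 3 of 4 distal convoluted tubule, 3 of 5 intercalated cell, 3 of 5 endothelial and 2 of 4 principal cell genes were higher in KO at an adjusted p under 0.05 in the limma fit, against 5.22% of all genes. The mean log2 level of the distal convoluted tubule markers was 9.57 to 9.92 on WT arrays and 9.95 to 10.09 on KO arrays, that of the intercalated cell markers 8.76 to 9.04 and 8.92 to 9.22, and that of the endothelial markers 9.08 to 9.40 and 9.29 to 9.58. The proximal tubule markers averaged 12.08 to 12.11 on WT arrays and 11.99 to 12.15 on KO arrays, but Slc5a2 was higher in KO by 0.20 ± 0.04 (adjusted p = 0.00263) and Slc22a6 lower, at -0.28 ± 0.06 (adjusted p = 0.00498). In the thick ascending limb list Kcnj1 was higher by 0.21 ± 0.04 (adjusted p = 0.00179) and Umod lower, at -0.09 ± 0.03 (adjusted p = 0.0398). The part of these cell type differences in the results below was not tested. In whole kidney a change in the number of cells of a type and a change in RNA per cell cannot be told apart.

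As a group, the oxidative phosphorylation genes stood at similar levels in both genotypes. Each member was first expressed as the deviation from its own mean over the 22 arrays, and the deviations of the 89 members were then averaged on each array. In WT this group level was -0.009 ± 0.083 (SD, n = 11), against 0.009 ± 0.088 in KO (SD, n = 11), a difference of 0.018 log2. Much of that spread lay between the numbered pools described further on. Within the paired pool 1 arrays KO minus WT was 0.021, beside SDs of 0.037 in WT and 0.023 in KO (n = 5 each), and within pool 2 it was 0.024, beside SDs of 0.019 and 0.036 (n = 5 each). The difference was thus near the spread between arrays of the same number, and the WT and KO sets differ in that ZT8 is missing from the first and ZT16 from the second. Among the 10 time and genotype groups with a pair of pools, the group means ran only from -0.013 in WT at ZT4 to 0.056 in KO at ZT20. The paired WT groups stood at 0.022, -0.013, -0.003, -0.005 and -0.006 (ZT0, ZT4, ZT12, ZT16, ZT20). The paired KO groups stood at 0.024, 0.027, 0.013, -0.009 and 0.056 (ZT0, ZT4, ZT8, ZT12, ZT20). The lowest values came from the single pools, with -0.090 for WT at ZT8 and -0.120 for KO at ZT16. No daily course common to both genotypes is visible in the plot of the group level by array.

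**Figure D1:**
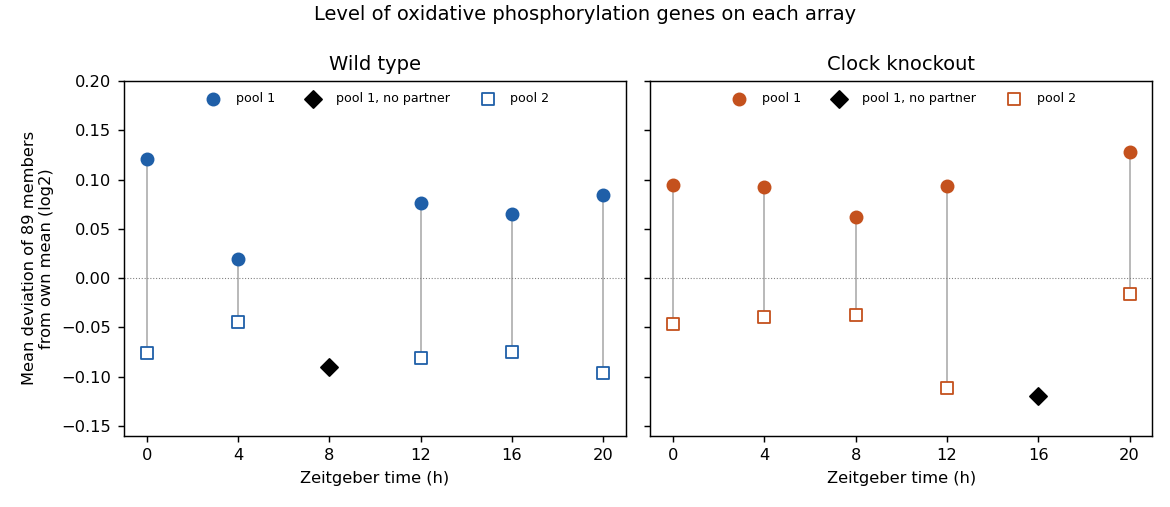
Mean log2 deviation of the 89 members from their own means on each of the 22 arrays, against zeitgeber time, in wild type (left) and Clock knockout (right). Filled circles are pool 1, open squares pool 2, grey lines join pools of a group, and black diamonds are the 2 arrays with no partner. All paired pool 1 arrays lay between 0.019 and 0.128 and all pool 2 arrays between -0.112 and -0.016.

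Taken complex by complex, the group level differed between genotypes by 0.009 for complex I, 0.046 for its assembly factors, 0.040 for complex II, 0.009 for complex III, -0.059 for cytochrome c, 0.029 for complex IV and 0.016 for complex V. Over all arrays each was smaller than the SD within either genotype, which ran from 0.045 for complex II in WT to 0.127 for cytochrome c in WT. Within pool numbers the complex II difference was 0.055 in pool 1 beside SDs of 0.029 and 0.034, and 0.040 in pool 2 beside 0.027 and 0.045 (WT and KO, n = 5 each). For complex I the values were 0.013 and 0.016 beside SDs of 0.023 to 0.039, and for complex III they were 0.001 and 0.026 beside 0.032 to 0.047. Between complexes the time course was similar. Complexes I, III, IV and V had their lowest WT mean at ZT8 and their lowest KO mean at ZT16, which are the groups of a single pool. Complex III, for instance, averaged 0.049, 0.011, 0.001, -0.009 and -0.015 in WT at ZT0, ZT4, ZT12, ZT16 and ZT20, against -0.122 at ZT8. Complex II departed from this in WT, where its lowest mean was -0.055 at ZT4 and its highest 0.007 at ZT0. The assembly factors had their highest means at ZT12 in both genotypes, with 0.065 in WT and 0.102 in KO.

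To ask which single genes depended on Clock, a 24 h wave was fitted in each genotype with limma, and the KO minus WT difference of the fitted means was tested for all 14002 genes with Benjamini-Hochberg adjustment. Of the 89 members, 2 were higher in KO and 0 were lower at an adjusted p under 0.05, while 9.11% of all genes passed, 5.22% higher and 3.89% lower. At an unadjusted p under 0.05 the count was 3 members, and across all genes the share was 25.1%. The median difference over the members was 0.018 log2 against 0.004 over all genes, and 61 of the 89 members against 7230 of the 14002 genes had a positive sign. So had 53 of 59 cytosolic ribosomal proteins and 14 of 17 citric acid cycle genes, but only 17 of 41 mitochondrial carriers of the Slc25 family. With each array's median subtracted, 78 members were positive and the medians were 0.050 for members and 0.035 for all genes. After a repeated quantile normalization 50 were positive, with a median of 0.008. Without both KO pools at ZT20, 41 members were positive and the median was -0.003, and without KO ZT12 pool 1 alone it was -0.000, so its sign rests on a few arrays. The middle of the members' distribution was narrow, from -0.065 at the 5th percentile to 0.079 at the 95th, against -0.160 and 0.170 for all genes.

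These estimates have limited precision, which depends on the 11 arrays per genotype and on each gene's spread between arrays. The fit had no term for the pool number described further on, so differences between pools count in that spread. Standard errors ran from 0.025 for Atp5a1 to 0.177 for Ndufb10, on the same arrays. The 95% intervals of the differences had a median half-width of 0.101 log2, and 72 of the 89 lay wholly within 0.2 log2 of 0. The widest interval belonged to Cox8b, from -0.24 to 0.66, and the next widest to Ndufb10, from -0.37 to 0.37. A difference that missed the threshold therefore does not show that a gene was equal in both genotypes.

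In complex II, Sdha, the flavoprotein subunit that oxidises succinate, was higher in KO. Its WT arrays read 12.26 at the lowest, 12.34 at the median and 12.38 at the highest, and its KO arrays 12.36, 12.43 and 12.46. Only 1 of the 11 WT arrays reached the lowest KO array, and 9 of the 11 KO arrays lay above every WT array, so the groups overlapped slightly. The difference was 0.088 ± 0.026 log2 (standard error of the fit, as after ± below unless SD is written; adjusted p = 0.0357), a rise of small size in a bright gene. The difference stayed between 0.078 and 0.093 in the 22 fits that each left out 1 array, but the call was lost in 11 of them, with an adjusted p of up to 0.0811. Those arrays were WT ZT4 pool 1, WT ZT12 pool 2, WT ZT16 pool 1, WT ZT20 pool 1, KO ZT0 pool 1, KO ZT4 pool 2, both KO ZT8 pools, KO ZT12 pool 1, KO ZT16 pool 1 and KO ZT20 pool 2. Within pool 1 the difference was 0.104 (adjusted p = 0.274) and within pool 2 it was 0.066 (adjusted p = 0.674).

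The other complex II genes did not pass. Sdhb, the iron-sulfur subunit, differed by 0.027 ± 0.044 (adjusted p = 0.723). Sdhc and Sdhd, which anchor the complex in the membrane, differed by -0.006 ± 0.034 (adjusted p = 0.926) and 0.045 ± 0.040 (adjusted p = 0.498). Their arrays overlapped broadly between genotypes, with Sdhd reading 10.87 to 11.10 in WT and 10.86 to 11.21 in KO.

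Among the 7 complex I assembly factors, Ndufaf7, a methyltransferase needed for the assembly of complex I, was higher in KO. WT arrays read 8.80 at the lowest, 8.90 at the median and 9.20 at the highest, and KO arrays 8.99, 9.02 and 9.21. The WT pools at ZT4 stood apart from each other, at 8.80 and 9.20, and 9 of the 11 WT arrays lay below the lowest KO array. Its difference was 0.136 ± 0.039 (adjusted p = 0.0337). Leaving out 1 array moved it between 0.111 and 0.167, and the call was lost in 10 of the 22 fits, with an adjusted p of up to 0.0782. They were the fits without WT ZT0 pool 2, WT ZT4 pool 1, WT ZT8, WT ZT12 pool 2, WT ZT16 pool 1, KO ZT0 pool 1, KO ZT8 pool 1, KO ZT12 pool 1 and either KO ZT20 pool. Within pool 1 the difference was 0.181 (adjusted p = 0.112) and within pool 2 it was 0.069 (adjusted p = 0.743).

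Ndufaf5, which hydroxylates the core subunit Ndufs7, had a larger estimate with a wider error, 0.139 ± 0.074 (adjusted p = 0.25). Its WT arrays ran from 6.20 to 6.77 and its KO arrays from 6.42 to 6.96. Ndufaf4, an early assembly factor, had the most negative difference of all members, -0.104 ± 0.042 (adjusted p = 0.128), and is described with the rhythms below. Under a repeated quantile normalization of the arrays, Ndufaf4 passed as lower in KO, at -0.124 with an adjusted p of 0.0463, while Sdha and Ndufaf7 did not, at 0.074 (adjusted p = 0.0952) and 0.117 (adjusted p = 0.0539). The remaining 4 assembly factors differed by between 0.010 (Ndufaf3) and 0.050 (Ndufaf1).

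In complex I itself, 0 of 34 subunits passed in the limma fit, and 0 had an unadjusted p under 0.05. The differences ran from -0.091 ± 0.046 for Ndufa13, an accessory subunit also known as Grim19 (adjusted p = 0.225), to 0.066 ± 0.044 for Ndufs4, an accessory subunit of the peripheral arm (adjusted p = 0.366). Ndufa13 read 9.37 to 9.65 on WT arrays and 9.27 to 9.55 on KO arrays. The 6 core subunits on the list, which belong to the conserved catalytic part of the complex, had differences between -0.039 (Ndufv1) and 0.064 (Ndufv2), with a median of 0.015. The 28 accessory subunits had a median of 0.009.

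Complexes III, IV and V and cytochrome c likewise had 0 members called and 0 at an unadjusted p under 0.05. In complex III the differences ran from -0.063 ± 0.060 for Uqcr10 (adjusted p = 0.532) to 0.057 ± 0.030 for the core protein Uqcrc2 (adjusted p = 0.245). Cycs, the mobile carrier between complexes III and IV, read 11.51 at the lowest, 11.72 at the median and 11.92 at the highest in WT and 11.53, 11.62 and 11.88 in KO, and it differed by -0.062 ± 0.051 (adjusted p = 0.465). In complex V the differences ran from -0.074 ± 0.076 for Atp5k (adjusted p = 0.565) to 0.080 ± 0.053 for Atp5md (adjusted p = 0.363). The F1 subunits that form the catalytic head, Atp5a1 and Atp5b, differed by 0.049 ± 0.025 (adjusted p = 0.219) and 0.018 ± 0.025 (adjusted p = 0.667).

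Several members are alternative forms of the same subunit, where one form serves most tissues and another belongs to muscle, brown fat, lung or testis. In none of these pairs did a form pass the test. Cox4i1, the common form, differed by 0.041 ± 0.068, and Cox4i2, the form known from lung, by -0.006 ± 0.044. Cox6a1 differed by 0.078 ± 0.076, and its heart and muscle form Cox6a2 by -0.098 ± 0.058 (adjusted p = 0.303), the lowest value in complex IV. Cox6b1 and its testis form Cox6b2 differed by 0.012 ± 0.056 and -0.009 ± 0.057. Cox7a1, the muscle form, differed by 0.042 ± 0.052, Cox7a2 by 0.017 ± 0.057 and Cox7a2l, a factor in the assembly of supercomplexes, by 0.078 ± 0.106. Ndufa4, now counted with complex IV, differed by 0.000 ± 0.028 and its relative Ndufa4l2 by 0.028 ± 0.052. Cox8a differed by -0.031 ± 0.044. The genes Atp5g1, Atp5g2 and Atp5g3, which encode the same c-ring protein of complex V, differed by 0.037 ± 0.050, 0.010 ± 0.033 and 0.026 ± 0.039.

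Cox8b, a form of Cox8 known from heart, muscle and brown fat, had the largest difference of all members, 0.21 ± 0.22, which was within its error (adjusted p = 0.565). WT arrays read 5.38 at the lowest, 6.30 at the median and 6.80 at the highest, and KO arrays 5.15, 6.41 and 7.96. The value of 7.96 was KO ZT8 pool 1, while the other KO arrays reached 6.92. The same array had the highest levels of brown and white fat genes, with 8.34 for Ucp1, the uncoupling protein of brown fat, 7.81 for Cidea and 7.75 for Adipoq, the adipokine adiponectin. On all other arrays Ucp1 lay between 4.86 and 6.85. The list of 3 brown fat markers had a mean level of 4.92 to 6.39 on WT arrays and 4.84 to 7.96 on KO arrays, 0 of the 3 passed the limma test between genotypes (0 at an unadjusted p under 0.05), and their part in the Cox8b value was not tested. Leaving out 1 array moved the Cox8b difference between 0.070 and 0.369, and without both KO ZT20 pools it was -0.009. Cox7a1, which brown fat also expresses, read 8.72 on the same array, near its KO mean of 8.78 ± 0.13 (SD, n = 11).

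**Figure D2:**
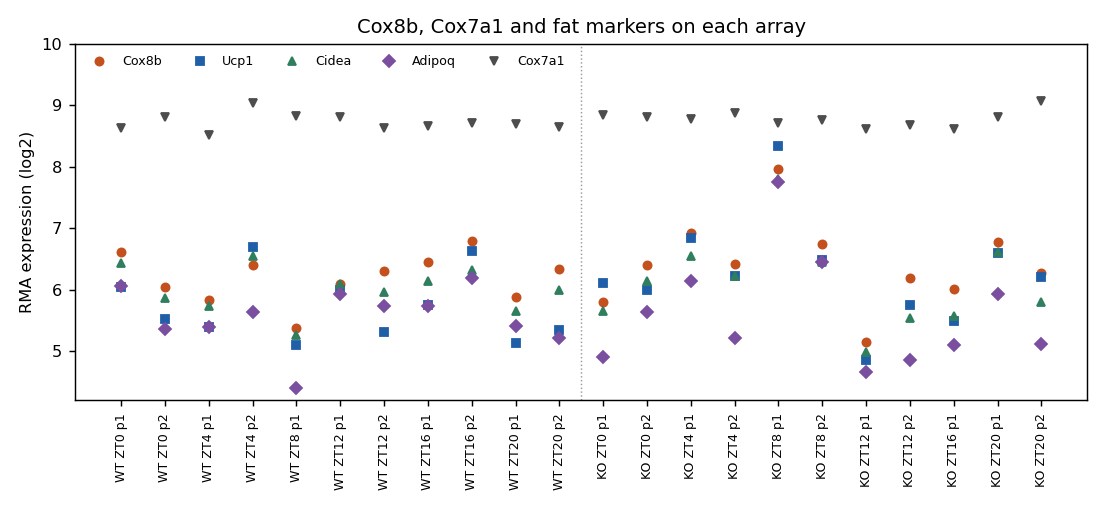
RMA log2 expression of Cox8b, Cox7a1 and the fat genes Ucp1, Cidea and Adipoq on each of the 22 arrays (p1 and p2 are pool numbers, the dotted line parts WT from KO). On KO ZT8 pool 1, Cox8b was at 7.96 and Ucp1 at 8.34, each gene's highest value, while Cox7a1 was at 8.72. Levels of different genes on one axis are not comparable.

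The question of daily rhythm was put to each genotype by testing the fitted 24 h wave. In WT, 1 of 89 members passed, against 6.44% of all genes, and 5 members had an unadjusted p under 0.05, against 22.6% of all genes. In KO, 0 members passed in the limma fit, against 2.46% of all genes, and 2 had an unadjusted p under 0.05, against 13.8%. A difference between the rhythms of WT and KO was found for 0 members, against 0.0429% of all genes, and for 0 members at an unadjusted p under 0.05, against 7.77%. The waves of the members were shallow. Their median amplitude (the distance from fitted mean to fitted peak) was 0.044 log2 in WT and 0.056 in KO. Over all genes it was 0.087 and 0.068. Shallow waves were not particular to the members, since the medians were 0.031 and 0.037 for citric acid cycle genes. For cytosolic ribosomal proteins they were 0.049 in both genotypes, while the Slc25 carriers had larger medians than the members in both. Whether expression level played a part was not tested. Among the members the largest amplitudes in both genotypes, 0.29 in WT and 0.45 in KO, belonged to Cox8b and did not pass (adjusted p = 0.670 and 0.574).

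Ndufaf4 was the member that passed in WT. Its WT arrays, from ZT0 to ZT20 with pool 1 before pool 2, read 8.45 and 8.22, then 8.18 and 8.12, 8.28 in the lone ZT8 pool, 8.57 and 8.42, 8.49 and 8.62, and 8.57 and 8.41. The KO arrays in the same order read 8.10 and 8.17, then 8.05 and 8.31, 8.30 and 8.20, 8.44 and 8.42, 8.25 in the lone ZT16 pool, and 8.34 and 8.38. WT arrays were lowest at ZT4 and high from ZT12 to ZT20, and every WT array at or after ZT12 lay above both WT arrays at ZT4. The WT amplitude was 0.20 ± 0.042 with a fitted peak at ZT16.3 (adjusted p = 0.0146). The KO amplitude was 0.128 ± 0.042 with a peak at ZT14.3 (adjusted p = 0.274), and the difference between the rhythms did not pass, so a change of the rhythm in KO was not shown. The WT call was lost without WT ZT4 pool 2 (amplitude 0.183, adjusted p = 0.0654) and held in the other 21 fits that left out 1 array. It was also lost with array medians subtracted (0.172, adjusted p = 0.0732), within pool 1 (0.181, adjusted p = 0.397) and within pool 2 (0.232, adjusted p = 0.339).

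**Figure D3:**
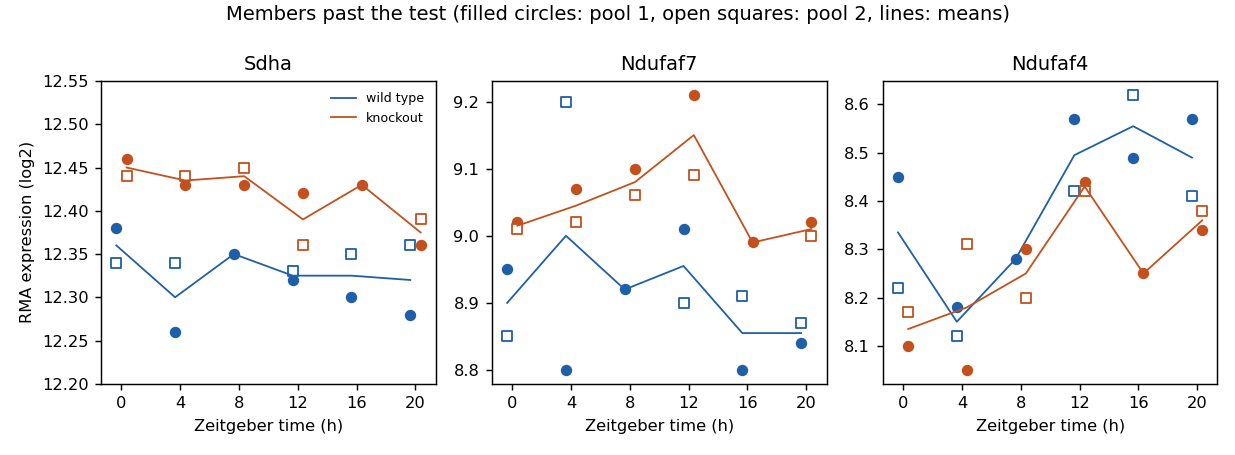
RMA log2 expression of Sdha, Ndufaf7 and Ndufaf4 on each array against zeitgeber time, in wild type (blue) and knockout (orange). Circles are pool 1, squares pool 2, and lines join the means of each time, so that 9 of 11 knockout arrays of Sdha lie above all wild-type arrays and wild-type Ndufaf4 is lowest at ZT4.

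The 4 other members with an unadjusted p under 0.05 in WT were Ndufv3, a complex I subunit, with an amplitude of 0.146 ± 0.046 and a peak at ZT4.04 (adjusted p = 0.113), and the minor complex IV forms Cox4i2, Cox6a2 and Cox8c. Those 3 had amplitudes of 0.135, 0.167 and 0.144 with peaks at ZT20.5, ZT17.3 and ZT20.7, and adjusted p of 0.158, 0.176 and 0.191. In KO the 2 members were Ndufaf4 and Cox6b2, whose amplitude was 0.148 ± 0.057 (adjusted p = 0.336). These names other than Ndufaf4 were picked after their values were seen.

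At no single time did a member differ between genotypes in the limma fit of group means, against 1.84% of all genes called at any time. Time by time the share of all genes was 0.0286% at ZT0 and also at ZT8, 0.00714% at ZT4, 0.121% at ZT12, 0.0143% at ZT16 and 1.74% at ZT20. A count of 3 members had an unadjusted p under 0.05 at 1 time each. Cox8b differed by 1.97 at ZT8 (adjusted p = 0.516), where KO pools read 7.96 and 6.74 and the lone WT pool 5.38. Ndufaf4 differed by -0.307 at ZT16 (adjusted p = 0.632) and Atp5md by 0.30 at ZT20 (adjusted p = 0.233). From ZT0 to ZT20 the median member difference was 0.017, 0.029, 0.069, -0.008, -0.105 and 0.066. The values at ZT8 and ZT16 each set a pair of pools against a single pool, and that single pool was the lowest of its genotype or close to it.

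The members did vary from array to array, and they did so together. The first principal component held 59.7% of the variance of the 89 members over the 22 arrays, against 28.5% for all genes, and 77 of the 89 members correlated positively with the members' mean across arrays. Each member is part of that mean, which by itself favours a positive sign, and no other set of 89 genes was compared in either way. The variation of the members followed the pool number in the labels, a pattern noticed in the data and then measured on the same data. In all 10 groups with a pair of pools, the group level was higher in pool 1 than in pool 2, by 0.146 ± 0.043 (SD, n = 10 pairs) and by between 0.064 (WT ZT4) and 0.205 (KO ZT12). Over all genes the same difference was -0.004. The arrays numbered 1 at WT ZT8 and KO ZT16, which have no partner, did not follow their number and stood at -0.090 and -0.120, with or below the pool 2 arrays. In a limma fit with the 12 groups and the pool number as terms, 37 members were higher in pool 1 and 0 were lower, against 4.43% of all genes called, 3.04% higher and 1.39% lower. The count ran from 31 to 44 when 1 array was left out. Both genotypes showed it, since the paired pool 1 arrays, without the lone arrays, averaged 0.073 in WT and 0.094 in KO, and the pool 2 arrays -0.075 and -0.050.

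Over the 89 members the median pool difference was 0.128, against 0.018 for KO minus WT. The members that passed a test had small pool differences. Those tests had no pool term, so a large pool difference widens a member's error and makes a call less likely. The small values are therefore no separate finding about these members. Their pool and genotype differences were -0.016 and 0.088 for Sdha, -0.008 and 0.136 for Ndufaf7, and 0.022 and -0.104 for Ndufaf4. Ndufb10, an accessory subunit of the membrane arm of complex I, had the largest pool difference, 0.735 ± 0.069 (adjusted p = 4.58e-05). Its pool 1 arrays read 10.03, 9.25, 9.52, 9.42 and 9.36 in the paired WT groups (ZT0, ZT4, ZT12, ZT16, ZT20), where pool 2 read 8.88, 8.87, 8.94, 8.64 and 8.67. In KO, pool 1 read 9.63, 9.53, 9.37, 9.62 and 9.58 (ZT0, ZT4, ZT8, ZT12, ZT20), and pool 2 read 8.71, 8.83, 8.98, 8.80 and 8.62. All paired pool 1 arrays of Ndufb10 lay above all pool 2 arrays, and the arrays without a partner read 8.73 and 8.71, within the range of pool 2. By comparison its KO minus WT difference was 0.004 ± 0.177. Atp5l, the g subunit of complex V, followed with 0.641 ± 0.052, Uqcrh, the hinge protein of complex III, with 0.603 ± 0.051, and Ndufa1 with 0.525 ± 0.044, each higher in pool 1 in 10 of 10 pairs. Atp5l has 6 single-symbol probe sets, which may in part read near-identical copies, and they gave pool differences of 0.564 to 0.704.

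The difference was not shared evenly by the members. Of the 89, 31 were higher in pool 1 in all 10 pairs, and Ndufs7 and Uqcrc1 were higher in 0 pairs, with pool differences of -0.141 ± 0.038 (adjusted p = 0.0548) and -0.108 ± 0.031 (adjusted p = 0.0709). The median was 0.151 for complex I, 0.177 for complex III, 0.088 for complex II, 0.072 for complex IV, 0.054 for complex V and 0.036 for the assembly factors, against -0.011 for all genes. Of the 18 genes grouped as core subunits of complexes I to III and F1 subunits of complex V, 4 were called and the median was 0.033. Of the 56 accessory and Fo subunits, 32 were called and the median was 0.165. The 7 tissue forms of complex IV had 0 calls in the limma fit and a median of 0.007. Whether core and accessory subunits differed was not tested. The pool difference showed little relation to gene span in the RefSeq annotation (Spearman rho = -0.08 over 89 members) or to mean level (rho = -0.19), while the KO minus WT difference had a rho of 0.41 with span, all across genes measured on the same arrays.

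**Figure D4:**
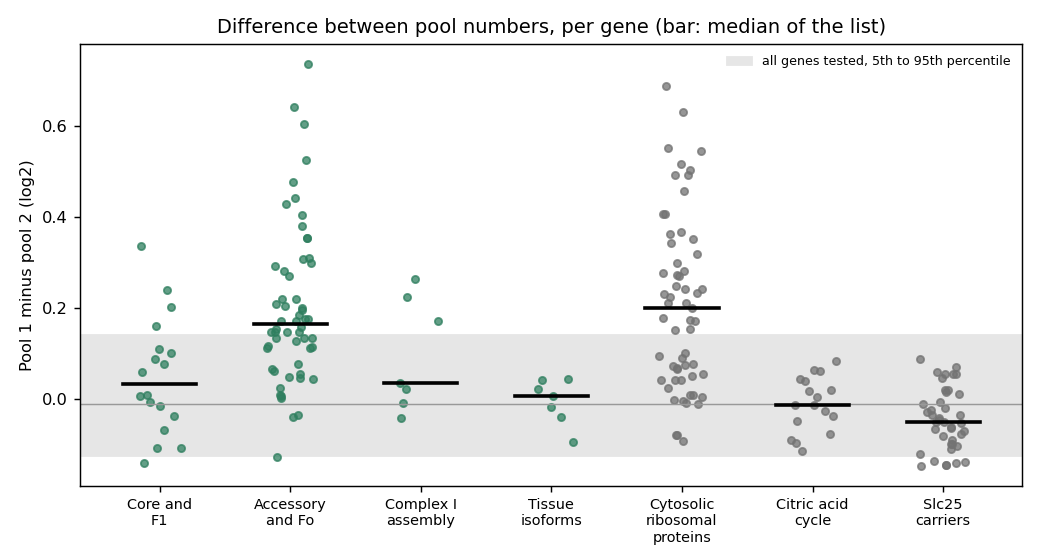
Pool 1 minus pool 2 (log2, limma fit with the 12 groups as terms) for each gene of 4 classes of members (green) and of 3 comparison lists (grey). Bars are list medians, the shaded band is the 5th to 95th percentile of all 14002 genes (-0.126 to 0.141), and the accessory and Fo subunits reach a median of 0.165 beside 0.199 for cytosolic ribosomal proteins.

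Genes outside the group shared the pattern or lacked it. Cytosolic ribosomal proteins, 59 genes, had a median pool difference of 0.199 with 33 called higher in pool 1. The 41 mitochondrial carriers of the Slc25 family had a median of -0.050 and 0 calls, and the 17 citric acid cycle genes a median of -0.012 and 0 calls. A list of 48 respiratory chain genes outside the naming rule, mostly assembly factors and enzymes of coenzyme Q synthesis, had a median of 0.005. Of these 48, 6 were called higher in pool 1 and 0 lower, and single genes ran from -0.177 to 0.549, so part of that list shared the pattern. Among all genes, 3.04% were called higher in pool 1 and 1.39% lower. With the pool number as a term in the wave model, the 2 members called between genotypes, 1 called for rhythm in WT and 0 called for rhythm in KO were as many as without it, and the median standard error of the members' genotype difference was 0.040 instead of 0.049. That term counts the 2 lone arrays as pool 1, though their level was with or below pool 2. Without these arrays the same model called 0 members between genotypes, 1 for rhythm in WT and 0 for rhythm in KO.

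Genes around the group were read for the same questions. Of 20 regulators of mitochondrial genes, 0 passed between genotypes in the limma fit, against 9.11% of all genes, and 6 (30%) had an unadjusted p under 0.05, against 25.1%. For rhythm in WT, 2 (10%) passed, against 6.44% of all genes. Ppargc1a, the coactivator that drives mitochondrial biogenesis, differed by 0.13 ± 0.04 (adjusted p = 0.0576). Tfam, which packages and transcribes mitochondrial DNA, had a WT rhythm of amplitude 0.25 ± 0.06 with a peak at ZT8.04 (adjusted p = 0.0421), and Ppara, the fatty acid receptor, one of 0.24 ± 0.05 with a peak at ZT9.56 (adjusted p = 0.0261). In KO the amplitude was 0.08 ± 0.06 for Tfam (adjusted p = 0.791) and 0.23 ± 0.05 for Ppara (adjusted p = 0.0525). The difference between the rhythms of WT and KO passed for 0 of the 20 regulators. Of the 48 respiratory chain genes outside the rule, 2 were higher in KO and 1 lower, a share of 6.25% that is below the 9.11% of all genes. Cox18, an insertase for a complex IV subunit, was higher by 0.33 ± 0.05 (adjusted p = 0.000269), and it lies 14.0 Mb from Clock on chromosome 5 in GRCm38.p6. Coq5 of coenzyme Q synthesis was higher by 0.15 ± 0.04 (adjusted p = 0.015) and lies on the same chromosome, 39.1 Mb from Clock, as does Ppargc1a at 24.8 Mb. Other listed genes on chromosome 5 were not called between genotypes. They were Kdr at 0.3 Mb (-0.04 ± 0.04, adjusted p = 0.582), Mrpl1 at 20.0 Mb (0.12 ± 0.06, adjusted p = 0.247) and Coq2 at 24.4 Mb (0.00 ± 0.03, adjusted p = 0.986). Mdh2 at 59.6 Mb and Cox19 at 63.1 Mb were not called either. A link to the Clock locus was not tested. In the other direction, Sdhaf1, an assembly factor of complex II, was lower, at -0.13 ± 0.04 (adjusted p = 0.0466). Rhythm in WT was called for 2 of the 48 (4.17%), against 6.44% of all genes, and rhythm in KO for 1, against 2.46%. Coa6 and Cmc1, both tied to complex IV assembly, passed in WT with amplitudes of 0.23 and 0.24 and peaks at ZT13.7 and ZT7.55 (adjusted p = 0.00454 and 0.00389). Their KO amplitudes were 0.15 and 0.09 (adjusted p = 0.149 and 0.515). Surf1 passed in KO with an amplitude of 0.14 (adjusted p = 0.0437), beside 0.09 in WT (adjusted p = 0.169). The difference between rhythms passed for 0 of the 48. Of the 17 citric acid cycle genes, 0 passed between genotypes and 0 had an unadjusted p under 0.05. Only 3 members lie on the chromosome of Clock, Atp5k, Cox6a1 and Atp5j2, at 32.2, 39.1 and 69 Mb from it.

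The promoters of the members were read in RefSeq sequence of GRCm38.p6, where 73 of the 89 members had an entry of 250 bases before and 50 after the start of the gene. Sequences are shown for the 3 members that passed the test of genotype or of rhythm, for Atp5g1, whose window holds the E-box CACGTG that Clock and Arntl bind, and for Atp5g3, which holds the E-box and the site of the estrogen-related receptors. They cover the 250 bases before the start, 5′ to 3′ on the gene's own strand, with capitals on letters that match a motif searched on either strand. Sdha lies on the minus strand (chr13:74350241-74350490), Ndufaf7 on the plus strand (chr17:78936885-78937134), Ndufaf4 on the plus strand (chr4:24897833-24898082), Atp5g1 on the minus strand (chr11:96075632-96075881) and Atp5g3 on the minus strand (chr2:73911327-73911576).
Sdha: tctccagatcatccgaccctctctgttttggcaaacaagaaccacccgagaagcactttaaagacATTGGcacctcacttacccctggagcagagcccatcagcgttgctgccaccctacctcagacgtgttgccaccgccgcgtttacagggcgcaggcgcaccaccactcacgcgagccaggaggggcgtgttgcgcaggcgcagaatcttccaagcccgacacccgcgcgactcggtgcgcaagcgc
Ndufaf7: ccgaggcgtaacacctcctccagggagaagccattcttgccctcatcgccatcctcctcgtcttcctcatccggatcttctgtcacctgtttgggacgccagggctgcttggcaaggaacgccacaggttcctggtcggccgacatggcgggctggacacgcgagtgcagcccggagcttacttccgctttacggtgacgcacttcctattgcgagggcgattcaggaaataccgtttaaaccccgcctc
Ndufaf4: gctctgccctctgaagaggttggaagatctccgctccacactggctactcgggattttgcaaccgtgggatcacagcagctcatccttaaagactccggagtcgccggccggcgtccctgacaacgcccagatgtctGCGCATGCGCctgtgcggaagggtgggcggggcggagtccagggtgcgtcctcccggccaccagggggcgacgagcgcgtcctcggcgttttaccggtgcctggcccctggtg
Atp5g1: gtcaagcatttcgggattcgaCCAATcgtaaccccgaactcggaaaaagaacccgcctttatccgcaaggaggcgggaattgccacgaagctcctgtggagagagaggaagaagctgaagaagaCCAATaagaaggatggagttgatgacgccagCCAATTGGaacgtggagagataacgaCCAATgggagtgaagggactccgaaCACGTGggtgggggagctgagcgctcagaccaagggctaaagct
Atp5g3: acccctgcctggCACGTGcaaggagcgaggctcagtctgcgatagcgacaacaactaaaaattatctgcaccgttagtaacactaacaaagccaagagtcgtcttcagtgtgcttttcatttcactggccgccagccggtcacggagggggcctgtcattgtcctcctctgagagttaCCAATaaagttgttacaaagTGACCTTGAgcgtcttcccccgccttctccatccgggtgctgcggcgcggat
In Sdha the capitals mark a CCAAT box on the opposite strand that begins 185 bases before the start, and Ndufaf7 held none of the motifs in this window. In Ndufaf4 they mark the palindrome bound by NRF1, which begins 113 bases before the start. In Atp5g1 they mark the E-box at 44 bases and CCAAT boxes farther up, and in Atp5g3 the E-box at 238, a CCAAT box at 72 and TCAAGGTCA on the opposite strand at 52 bases. A match of letters is a description and says nothing of binding.

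Over the whole windows, the E-box CACGTG occurred in 6 of 73 members (8.22%, exact 95% interval 3.08% to 17.0%), against 8.09% of all 27025 genes with an entry and 11.3% of the 11033 other genes tested that had one. Its 6 holders were Atp5g1, Atp5g3, Atp5l, Atp5pb, Ndufa7 and Ndufv1, and none of them passed a test of genotype or rhythm. The NRF1 palindrome occurred in 7 members (9.59%), against 1.07% of all genes and 2.00% of the other genes tested, and its holders were Atp5g2, Atp5k, Cox6a1, Ndufa11, Ndufaf4, Ndufaf5 and Uqcrc1. The GABP site CCGGAAG occurred in 18 members (24.7%), against 9.93% and 17.5%. The YY1 site AAGATGGC occurred in 10 members (13.7%), against 3.19% and 4.63%, the estrogen-related receptor site TCAAGGTCA in 2 (2.74%), against 0.466% and 0.326%, and CCAAT in 32 (43.8%), against 41.1% and 41.5%. Both strands were searched, and the CCAAT box and the other motifs can overlap. Members without an entry were Atp5a1, Atp5mpl, Cox4i1, Cox4i2, Cox6a2, Cox6c, Cox8c, Ndufa2, Ndufa4l2, Ndufaf6, Ndufb9, Ndufs1, Sdhc, Uqcrb, Uqcrc2 and Uqcrq.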

How the data were processed

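Whole kidney RNA of 11 wild-type and 11 Clock knockout pools was measured on whole-transcript arrays. The authors deposited one log2 value per probe set and array, made with RMA, per the submitters' processing notes. That method subtracts background, forces arrays onto a common distribution and combines a set's probes, which hides any change shared by most genes and shrinks differences at low signal. The software version, the genome build and the dates of scanning: not given in the sources used here.

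Gene names came from the platform annotation. Of 35556 probe sets, 21789 have 1 symbol, 1621 several and 12146 are not listed and stay unnamed. The brightest single-symbol probe set stood for each gene, with a minimum mean of 5.2 log2. Members with more than 1 probe set numbered 18, and levels of different probe sets were not compared.

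Models were fitted with limma 3.58.1 in R 4.3.3 over all 14002 genes: a mean and a 24 h wave per genotype (16 residual degrees of freedom) and the means of 12 groups (10 residual degrees of freedom), in which a group of 1 pool is taken to vary like the others. The Benjamini-Hochberg threshold was an adjusted p under 0.05. Arrays give no read depth, and their number limits precision. The members, lists, tests and alternatives were chosen with earlier results of these data known. Genes named are those called, the extremes of each complex, complex II, Cycs, paired isoforms, the genes next to the level limit and called genes of 3 related lists. The alternatives tried were other filters, scalings, spreads, array weights, probe set means, subsets of arrays, each array left out, and the pool number as a block. The pool comparison and the fit without the 2 lone arrays were added after seeing the data.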

Additional observations from a re-analysis of the deposited data

How the results depend on the processing

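The count of 2 members called between genotypes fell to 0 with no filter on level, without both KO ZT20 pools, within pool 1, within pool 2, with a free mean at each time, and without the 2 arrays that have no partner pool, alone or with the pool number as a block. It was 1 with a repeated quantile normalization (Ndufaf4, lower) and 1 with a minimum change of 0.1 log2. The WT rhythm count of 1 fell to 0 with array medians subtracted, within either pool, with free means and with WT arrays fitted alone. With 1 array left out, the ranges were 0 to 2 members between genotypes, 0 to 2 for WT rhythm, 0 to 0 for KO rhythm, for the rhythm difference and for single times, and -0.000 to 0.037 for the median difference. The pool count was 31 to 52 over all settings run. On the plus strand alone, the promoter shares of the members were 8.22% for CCGGAAG, 0% for TCAAGGTCA and 26% for CCAAT. No plus-strand share of other genes is given, so these values cannot be set against the shares for both strands. Over all genes, the 1276 calls between genotypes became 2350 with array weights, 820 with free means, 639 without KO ZT20, 564 within pool 1 and 1 within pool 2, and the 902 rhythmic genes in WT became 600 to 951 with 1 array left out, 363 with WT alone, 140 with free means, 95 within pool 1, 14 within pool 2 and 552 without the lone arrays. The 344 rhythmic genes in KO became 697 with array weights, 228 with no filter, 198 with KO alone, 57 with free means, 12 without KO ZT20 and 0 within either pool, with 77 to 477 when 1 array was left out. The 6 rhythm differences became 0 to 11, the 258 single-time calls 21 without KO ZT20, 165 with no filter and 37 to 410 with 1 array left out, and the 620 pool calls 952 with a trended, robust spread and 921 with weights, and 412 to 723 with 1 array left out. Of the 1121 other values of single members, 1071 counted as kept, 40 lost a call, 9 uncalled values moved by more than 1 standard error, 1 gained a call and 0 reversed. A difference not called in the main fit counted as kept if it stayed uncalled and moved by less than 1 standard error. A called difference counted as kept if call and sign held, and an amplitude if its call held, whatever the size. Single-time differences could not be fitted within one pool number, which leaves no residual degrees of freedom.

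The numbers of the pools were checked as a pairing. Over all genes, deviations of same-numbered pools correlated above 0.1 in 25 of 45 pairs of groups (r from -0.41 to 0.55), which does not meet the criterion for treating the numbers as pairs. Over the 89 members they did in 45 of 45 (r from 0.14 to 0.84), so for these genes the number went with a shared deviation. With the pool number as a replicate block on all 22 arrays, the counts were 2, 1, 0, 0 and 0 and the median difference was 0.018, with no call of a named member changed. Without the 2 lone arrays the same block gave 0 members called between genotypes and a median difference of 0.029.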
